A study of Mus musculus with 9 samples.

Results

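The 10 genes described here encode the transforming growth factor beta (TGF-beta) ligands Tgfb1, Tgfb2 and Tgfb3, the receptors Tgfbr1, Tgfbr2 and Tgfbr3, and the latent TGF-beta binding proteins Ltbp1, Ltbp2, Ltbp3 and Ltbp4. They were taken by symbol and not by a cut on their values, though earlier results of these data were known at the choice. All 10 were found among the 55401 rows of the count table, each on a single row, and all 10 passed the filter on low counts. RNA of mouse hearts was sequenced in 3 groups of 3 hearts. Control hearts came from wild-type mice and form the sham-operated group of the design; their titles carry no time. TAC hearts came from wild-type mice 12 weeks after transverse aortic constriction (TAC), in which a band on the aortic arch forces the left ventricle to pump against a raised pressure. KO-TAC hearts, also titled 12 weeks, came from mice with the same operation, homozygous for a floxed c-Myc allele and carrying Tcf21 iCre, a Cre driven by a gene of cardiac fibroblasts that acts once tamoxifen is given. Operations were done on male mice aged 8 to 12 weeks. The knockout line received tamoxifen by intraperitoneal injection, 45 mg/kg on each of 5 days; the sources used here do not say whether the wild-type mice did. No knockout heart without TAC and no Cre control was analysed here, so in any comparison with KO-TAC the loss of c-Myc, Cre and tamoxifen cannot be told apart. Nothing in the labels ties each heart to a separate mouse, and p-values therefore cover only the spread between these samples.

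TGF-beta is secreted in a latent form. The growth factor is folded into its own propeptide, and this small complex is usually linked to an Ltbp protein that tethers it to fibrillin and fibronectin in the matrix. Integrins, thrombospondin-1 and proteases release the active ligand, which binds Tgfbr2; Tgfbr2 then phosphorylates Tgfbr1, and Tgfbr1 phosphorylates Smad2 and Smad3. Tgfbr3 (betaglycan) has no kinase activity and presents ligand, above all Tgfb2, to Tgfbr2. In heart muscle this pathway is known for turning fibroblasts into matrix-producing myofibroblasts.

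Promoter sequences are shown for 3 members that the results turn on, Ltbp2 and Ltbp1 because they lay outside the Control range in all 6 TAC-operated hearts, and Tgfb2 because its window alone holds the E-box that Myc and Max bind. Entries in RefSeq's promoter table (GRCm38.p6) were matched for 8 of the 10 members, with 12 windows of 250 bases before a start; Tgfb3 and Tgfbr3 were not matched. Some of the 12 lie wholly inside the annotated gene: window 2 of Tgfbr1, window 2 of Ltbp1, and windows 2 and 3 of Ltbp4. Windows 2 and 3 of Ltbp4 share most of their bases. Each sequence is written 5′ to 3′ on the gene's strand, in lower case, with matches to the 4 motifs searched on both strands in capitals. The Ltbp2 window stops where the annotated gene begins. Coordinates are in GRCm38.
Tgfb2, chr1:186705990-186706239, minus strand: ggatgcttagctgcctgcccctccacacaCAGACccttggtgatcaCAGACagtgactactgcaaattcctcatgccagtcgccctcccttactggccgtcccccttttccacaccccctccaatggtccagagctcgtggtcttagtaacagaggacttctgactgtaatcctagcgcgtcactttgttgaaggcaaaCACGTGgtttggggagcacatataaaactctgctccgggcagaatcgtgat
Ltbp2, chr12:84876533-84876741, minus strand: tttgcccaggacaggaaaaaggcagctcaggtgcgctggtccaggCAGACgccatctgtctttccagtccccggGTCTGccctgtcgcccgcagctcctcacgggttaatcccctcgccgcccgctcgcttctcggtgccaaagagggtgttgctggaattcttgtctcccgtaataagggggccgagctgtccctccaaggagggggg
Ltbp1, chr17:75005279-75005528, plus strand: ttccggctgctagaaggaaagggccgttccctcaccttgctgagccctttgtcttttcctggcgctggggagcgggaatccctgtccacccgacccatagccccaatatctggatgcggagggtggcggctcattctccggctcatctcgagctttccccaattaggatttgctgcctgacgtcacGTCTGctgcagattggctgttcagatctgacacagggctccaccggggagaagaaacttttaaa
The E-box CACGTG was found in 1 of the 12 member windows, in Tgfb2 at 51 bases before the start, and in 6.02% of 32851 windows of the same length over all genes. The core Smad element CAGAC (also searched as its reverse complement) was found in 7 of the 12 windows and in 42.2% of all windows. Among the 7 are window 2 of Tgfbr1 and window 2 of Ltbp1, which lie inside the gene. CAGAC or its reverse complement occurs in each of the 3 sequences above. The AP-1 motif TGANTCA, held by 6.75% of all windows, and the TEAD motif GGAATG, held by 12.6%, were found in 0 of the 12. The motifs do not overlap one another. These are matches of letters and not measured sites.

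Total counts per library were 59702513 to 109162107. Values are given as CPM, a gene's count scaled to the TMM-adjusted library total. The floxed gene Myc had 1.56 to 2.47 CPM in Control hearts, 6.22 to 14.2 in TAC hearts and 1.87 to 4.75 in KO-TAC hearts. Its log2 difference between KO-TAC and TAC was -1.44 (SE 0.41) with an edgeR adjusted p of 0.555. TAC hearts differed most among themselves: the median SD of log2 CPM over genes was 0.604 in TAC, 0.33 in KO-TAC and 0.171 in Control. The summed level of 9 cardiomyocyte markers was 77390 to 78760 CPM in Control hearts. TAC replicates 1, 2 and 3 had 41340, 85270 and 12030 CPM, and KO-TAC replicates 1, 2 and 3 had 42880, 62720 and 72200 CPM. TAC replicate 3 therefore stands apart, and TAC replicate 2 lies close to Control. At an adjusted p under 0.05, edgeR's quasi-likelihood test called 0 of 19051 genes in each of the 3 comparisons; DESeq2 called 1626 between TAC and Control, 195 between KO-TAC and TAC, and 89 between KO-TAC and Control, and at an unadjusted p under 0.05 edgeR gave 4054, 1420 and 1098.

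Under TAC in wild-type hearts, 8 of the 10 genes had higher mean values than in Control and 2, Tgfbr3 and Ltbp1, had lower ones. The median log2 difference of the 10 was 0.64, or 1.56-fold, beside 0.03 over all genes tested. By edgeR's adjusted p 0 of 10 were called, as were 0% of all genes. By DESeq2, Ltbp2 alone was called (DESeq2 log2 difference 5.34), where 5.68% of all genes were called higher. At an unadjusted p under 0.05, 5 members were higher (Tgfb1, Tgfb3, Ltbp2, Ltbp3 and Ltbp4) where 13.2% of all genes were, and 2 were lower (Tgfbr3 and Ltbp1) where 8.08% of all genes were. The CPM of the 2 groups did not overlap for Tgfb3, Tgfbr1, Ltbp2 and Ltbp4, all higher in TAC, and for Tgfbr3 and Ltbp1, both lower; this was so for 14.1% of all genes in the higher and 14% in the lower direction.

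**Figure D1:**
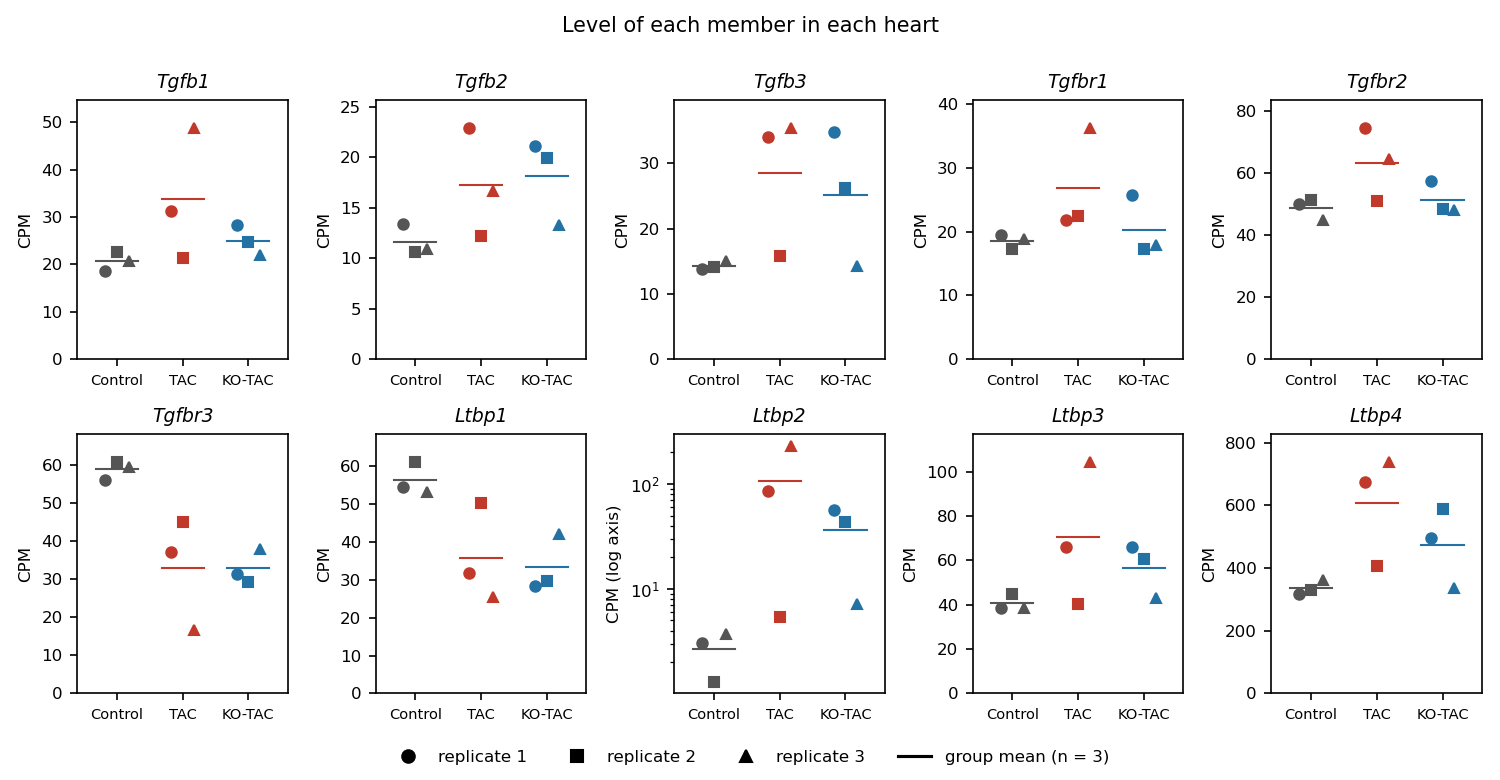
CPM of each of the 10 genes in every heart (points) with the group mean (bar, n = 3), Ltbp2 on a log axis. TAC replicate 3 has the highest value of 6 genes, among them Ltbp2 at 230.2 CPM, where the Control hearts have 1.30 to 3.67 CPM.

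Of the ligands, Tgfb1 (chr7:25687002-25705077), the form most studied in fibrosis, had 18.6, 22.6 and 20.8 CPM in Control replicates 1, 2 and 3. TAC hearts had 31.2, 21.4 and 48.8 CPM and KO-TAC hearts 28.3, 24.7 and 22.0 CPM. TAC replicate 2 lay inside the Control range and KO-TAC replicate 3 did too, so both operated groups overlapped Control. The mean was 33.8 ± 13.9 CPM (SD, n = 3) in TAC and 20.7 ± 2.02 in Control, a 1.64-fold difference (log2 0.71, SE 0.28, 95% interval 0.09 to 1.33; edgeR adjusted p = 0.196). Against TAC, KO-TAC was lower by 1.35-fold, with a 95% interval for the log2 difference of -1.05 to 0.18 (edgeR adjusted p = 0.712).

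Tgfb2 (chr1:186622792-186705989), the ligand that relies most on betaglycan, had 13.4, 10.6 and 10.9 CPM in Control. The TAC hearts had 22.9, 12.2 and 16.7 CPM, with replicate 2 again inside the Control range. KO-TAC hearts had 21.2, 20.0 and 13.3 CPM, replicate 3 being within the Control range too. Tgfb2 was the only member with a higher mean in KO-TAC (18.2 ± 4.24 CPM) than in TAC (17.3 ± 5.39 CPM), by a log2 difference of 0.07 (SE 0.27, 95% interval -0.52 to 0.67), which is smaller than the spread within either group, and limma-voom with quality weights turned its sign (-0.23). Its difference from Control was 1.49-fold in TAC (edgeR adjusted p = 0.248) and 1.56-fold in KO-TAC (edgeR unadjusted p = 0.0375, adjusted p = 0.851).

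Tgfb3 (chr12:86056745-86079041), the third isoform, had 13.8, 14.2 and 15.0 CPM in Control hearts, all close together. TAC hearts had 34.1, 15.9 and 35.5 CPM and KO-TAC hearts 34.8, 26.2 and 14.3 CPM. All 3 TAC hearts were above Control, replicate 2 by little, and KO-TAC replicate 3 was within the Control range. The TAC mean was 1.99-fold the Control mean (log2 0.99, SE 0.36, 95% interval 0.18 to 1.81; edgeR adjusted p = 0.182, DESeq2 adjusted p = 0.09). KO-TAC differed from TAC by -0.18 (SE 0.36, 95% interval -0.98 to 0.62).

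Tgfbr1 (chr4:47353222-47414931), the signalling receptor also known as ALK5, had 19.5, 17.4 and 18.8 CPM in Control, 21.8, 22.5 and 36.3 in TAC, and 25.8, 17.3 and 17.9 in KO-TAC. All 3 TAC hearts were above Control, while KO-TAC replicates 2 and 3 were at its level. The log2 difference between TAC and Control was 0.53 (SE 0.24, 95% interval -0.01 to 1.08; edgeR adjusted p = 0.242). Tgfbr2 (chr9:116084293-116175360), which binds the ligand first, had 50.2, 51.4 and 44.8 CPM in Control, 74.7, 51.2 and 64.6 in TAC, and 57.7, 48.5 and 48.1 in KO-TAC. Its groups overlapped in all 3 comparisons, and its TAC mean was 1.3-fold the Control mean (log2 0.38, SE 0.19, 95% interval -0.06 to 0.82; edgeR adjusted p = 0.282).

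Tgfbr3 (chr5:107106570-107289629), the co-receptor betaglycan, had the opposite pattern. Control hearts had 56.1, 60.7 and 59.6 CPM, TAC hearts 37.0, 45.1 and 16.6, and KO-TAC hearts 31.3, 29.3 and 37.9. Each of the 6 operated hearts was below each Control heart, whichever its genotype, as was so for 6.8% of all genes tested. The mean was 1.79-fold lower in both operated groups than in Control, with a log2 difference of -0.84 (SE 0.32, 95% interval -1.55 to -0.12) in TAC and -0.84 (SE 0.32, 95% interval -1.55 to -0.13) in KO-TAC. The edgeR adjusted p was 0.19 in TAC (unadjusted p = 0.0259) and 0.851 in KO-TAC (unadjusted p = 0.0256). Between KO-TAC and TAC the log2 difference was -0.0018 (SE 0.32, 95% interval -0.71 to 0.71), an interval that reaches 0.71 either way, and the sign turned with library size alone (0.08) and with the replicate number as a block (0.06).

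Levels of different genes were set beside each other per kilobase of exon. Over all annotated exons, Tgfbr3 made up 48.5% to 52.1% of the summed receptor CPM per kilobase in Control hearts. In TAC replicates 1, 2 and 3 it made up 31.2%, 41.5% and 15.8%, and in KO-TAC hearts 30.3% to 40.2%. No operated heart reached the Control range. Tgfbr2 took 33.5% of the receptor sum in Control, 45.8% in TAC hearts and 43.6% in KO-TAC hearts (means of 3 hearts), and Tgfbr1 took 16%, 24.7% and 21.4%. The order of the receptors within Control depends on the length used: by principal transcript Tgfbr2 was first (52.1%) and Tgfbr3 second (35.9%), and Tgfbr3 was again lower in TAC (19.2%) and KO-TAC (22.9%). Among the ligands Tgfb2 was the lowest per kilobase by either length, at 19.5% of the ligand sum in Control over all exons and 14.3% by principal transcript. Tgfb1 (39.6%) and Tgfb3 (40.9%) did not differ beyond their spread in Control hearts over all exons (36.6% to 42.7% and 39.8% to 42.5%), whereas by principal transcript Tgfb1 was at 59.3% and Tgfb3 at 26.4%. The share of Tgfb3 over all exons was 45.9% in TAC hearts and 46.5% in KO-TAC hearts.

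**Figure D2:**
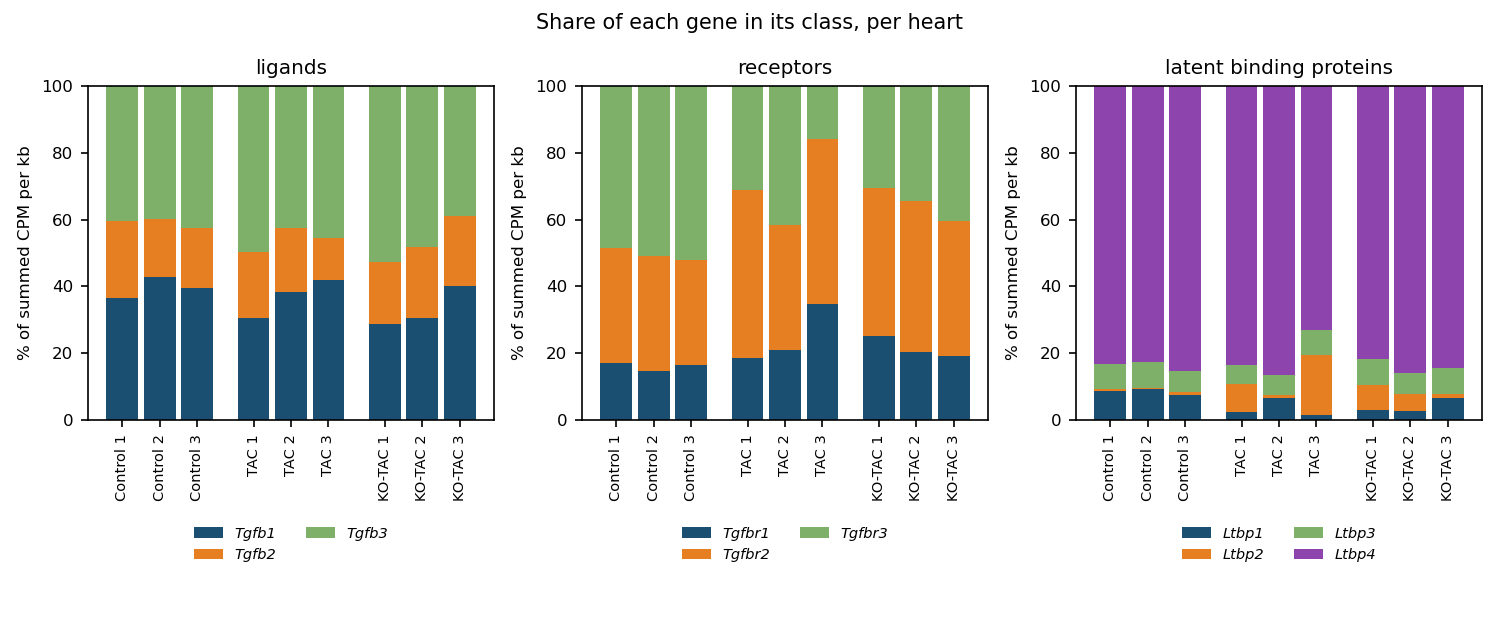
Share of each gene in the summed CPM per kilobase of all annotated exons of its class (ligands, receptors, latent binding proteins), stacked to 100% for every heart. Tgfbr3 takes 50.5% of the receptor sum on average in Control and 29.5% in TAC; Ltbp4 takes most of the binding protein sum in every heart, and Ltbp2 reaches 18% in TAC replicate 3 and at most 0.682% in Control.

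Of the latent binding proteins, Ltbp2 (chr12:84783212-84876532) had the widest range of the 10 genes as a ratio of its highest to its lowest value. It differs from the others in not binding latent TGF-beta; it is a microfibril protein. Control hearts had 3.08, 1.30 and 3.67 CPM, from 238, 85 and 307 counts. TAC hearts had 85.6, 5.41 and 230.2 CPM, and KO-TAC hearts 57.2, 43.9 and 7.18 CPM. All 6 operated hearts were above all Control hearts, which held in the higher direction for 5.36% of all genes tested, but TAC replicate 2 and KO-TAC replicate 3 were far below the others of their groups. The mean was 107 ± 114 CPM in TAC against 2.68 ± 1.23 in Control, 39.8-fold higher (log2 5.31, SE 1.26, 95% interval 2.50 to 8.13), with an edgeR adjusted p of 0.135 and a DESeq2 adjusted p of 0.000749. Without TAC replicate 3 the log2 difference was 4.06 by edgeR (adjusted p = 0.201) and 4.07 by DESeq2 (adjusted p = 0.0338). Over all alternatives tried for this value, the adjusted p ran from 4.69e-08 (DESeq2 without TAC replicate 2) to 0.399 (edgeR without Control replicate 2). In KO-TAC the mean was 36.1 ± 25.9 CPM, 13.4-fold above Control (log2 3.74, SE 1.17; adjusted p = 0.843 by edgeR, 0.139 by DESeq2) and 2.97-fold below TAC (log2 -1.57, SE 1.06, 95% interval -3.96 to 0.82; edgeR adjusted p = 0.723). That last log2 difference was -0.32 without TAC replicate 3, -2.12 without TAC replicate 2 and -0.76 with the replicate number as a block.

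Ltbp1 (chr17:75005568-75392512), which binds latent TGF-beta and anchors it in the matrix, was lower in operated hearts. It had 54.7, 61.1 and 53.2 CPM in Control, 31.9, 50.2 and 25.6 in TAC, and 28.4, 29.8 and 42.3 in KO-TAC. Each operated heart was below each Control heart, TAC replicate 2 by the least. Separation in this direction over all 6 operated hearts held for 6.8% of all genes tested. The mean was 1.57-fold lower in TAC (log2 -0.65, SE 0.27, 95% interval -1.25 to -0.05; edgeR adjusted p = 0.215) and 1.68-fold lower in KO-TAC (log2 -0.75, SE 0.27, 95% interval -1.36 to -0.15; edgeR adjusted p = 0.851) than in Control.

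Ltbp3 (chr19:5740904-5758532), which also binds all 3 latent ligands, had 38.6, 44.9 and 38.4 CPM in Control, 66.1, 40.5 and 104.3 in TAC, and 66.1, 60.5 and 43.1 in KO-TAC. TAC replicate 2 and KO-TAC replicate 3 lay within the Control range. The TAC mean was 1.73-fold the Control mean (log2 0.79, SE 0.32; edgeR adjusted p = 0.211). Ltbp4 (chr7:27305136-27337692), an elastic fibre protein that binds latent Tgfb1, had 316.3, 330.4 and 362.6 CPM in Control, 674.6, 405.8 and 738.3 in TAC, and 494.6, 587 and 335.1 in KO-TAC. All 3 TAC hearts were above Control, and the mean was 1.8-fold higher (log2 0.85, SE 0.33, 95% interval 0.12 to 1.58; edgeR adjusted p = 0.192, DESeq2 adjusted p = 0.055).

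Per kilobase of all exons, Ltbp4 was the most abundant of the 10 genes in Control hearts at 52.1 ± 3.67 CPM per kilobase and made up 83.7% of the binding protein sum there, 81% in TAC hearts and 84.1% in KO-TAC hearts. Ltbp1 (5.27 ± 0.395) and Ltbp3 (4.48 ± 0.412) followed among the binding proteins, with Control ranges of 4.97 to 5.72 and 4.23 to 4.96 CPM per kilobase that just miss each other. The share of Ltbp1 was 8.5% in Control, 3.46% in TAC hearts and 3.97% in KO-TAC hearts. Ltbp2 made up 0.257% to 0.682% in Control hearts, 0.911% to 18% in TAC hearts and 1.43% to 7.47% in KO-TAC hearts. By principal transcript the mean shares of Ltbp2 were 0.494%, 8.93% and 4.53%, and those of Ltbp1 14.1%, 5.91% and 6.76%. The Control order over all exons was Ltbp4, Tgfbr3, Tgfbr2, Ltbp1, Ltbp3, Tgfb3, Tgfb1, Tgfbr1, Tgfb2 and Ltbp2, from 52.1 down to 0.328 CPM per kilobase. Ltbp3 and Tgfb3, Tgfb3 and Tgfb1, and Tgfbr2 and Ltbp1 are neighbours in this order whose Control ranges overlap. The order also depends on the length used. By principal transcript it was Ltbp4, Tgfbr2, Ltbp1, Tgfbr3, Tgfb1, Ltbp3, Tgfb3, Tgfbr1, Tgfb2 and Ltbp2, from 62.5 down to 0.406 CPM per kilobase.

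**Figure D3:**
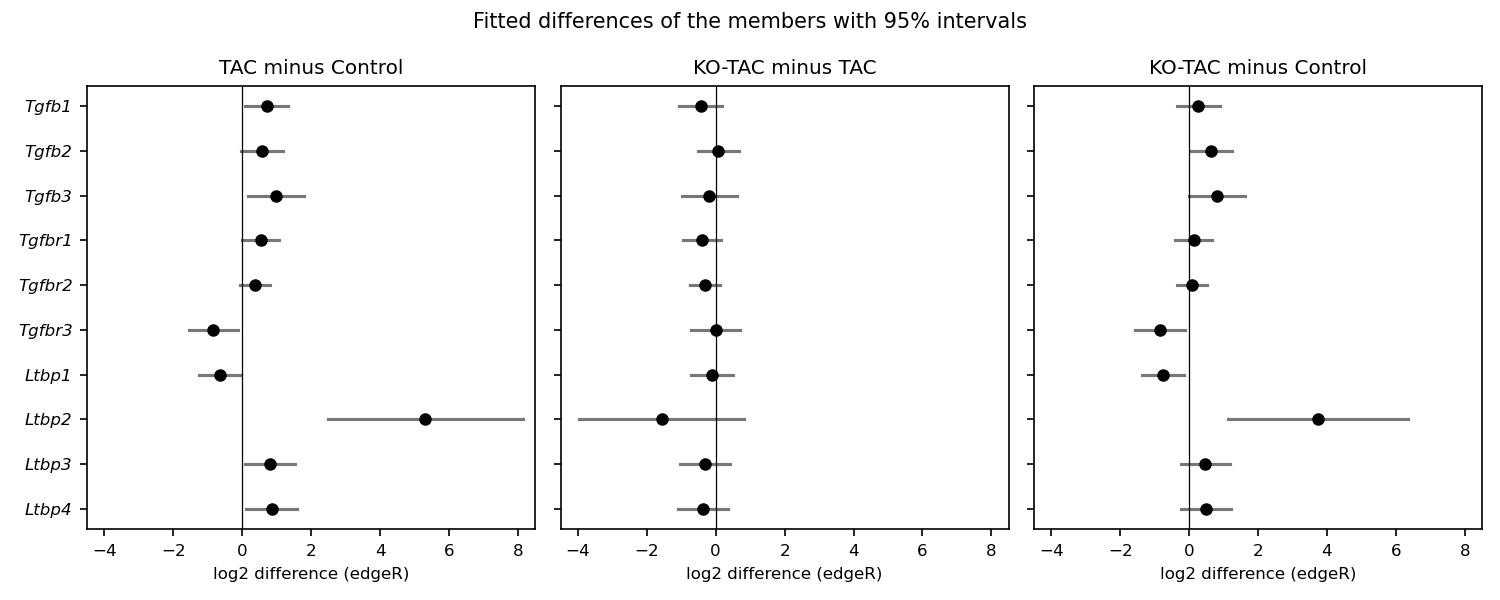
Log2 differences of the 10 genes in the 3 comparisons (points) with 95% intervals from edgeR's fit. Ltbp2 has the largest differences and the widest intervals, and every interval for KO-TAC minus TAC includes 0.

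The comparison of KO-TAC with TAC asks whether deletion of c-Myc in fibroblasts goes with other levels of these genes under the same load. Mean values were lower in KO-TAC for 9 of the 10 genes and higher for Tgfb2, with a median log2 difference of -0.31 beside 0.01 over all genes. None of the 10 was called by edgeR (0% of all genes) or by DESeq2 (1.03% of all genes, adjusted p 0.609 to 0.99 for the members), and 0 had an edgeR unadjusted p under 0.05, where 7.45% of all genes did. The CPM of the 2 groups overlapped for all 10, and did not overlap for 5.17% of all genes in the higher and 4.8% in the lower direction. The intervals leave room for sizeable differences: for Tgfb1 from -1.05 to 0.18, for Ltbp3 from -1.03 to 0.41 and for Ltbp4 from -1.09 to 0.36 on the log2 scale. Without TAC replicate 2, an alternative chosen after seeing the data, DESeq2 called Tgfb1 and Tgfbr2 lower in KO-TAC, where it called 9.96% of all genes lower.

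Between KO-TAC and Control, 8 members had higher and 2 lower means, with a median log2 difference of 0.38 beside 0.04 over all genes. The KO-TAC and TAC contrasts with Control share the Control hearts. No member was called by edgeR's adjusted p (0% of all genes) or by DESeq2 (0.468%). At an unadjusted p under 0.05, Tgfb2, Tgfb3 and Ltbp2 were higher (3.52% of all genes) and Tgfbr3 and Ltbp1 lower (2.24% of all genes). Groups did not overlap for Ltbp2 in the higher direction (12.9% of all genes) and for Tgfbr3 and Ltbp1 in the lower (13.6%). The log2 intervals of the other 5, Tgfb1 (1.21-fold), Tgfbr1 (1.1-fold), Tgfbr2 (1.05-fold), Ltbp3 (1.39-fold) and Ltbp4 (1.4-fold), span 0.

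The hearts of a group were not alike in these genes. In TAC, replicate 3 was highest, then 1, then 2 for 5 members, and replicate 2 was the lowest for 2 more; Tgfbr3 and Ltbp1 had the reverse order, with replicate 2 highest and replicate 3 lowest. In KO-TAC, replicate 1 was highest and replicate 3 lowest for 6 members. Without TAC replicate 2, edgeR called 8 of 10 members between TAC and Control. Tgfb1, Tgfb2, Tgfb3, Ltbp2, Ltbp3 and Ltbp4 then passed as higher (13.5% of all genes passed as higher), and Tgfbr3 and Ltbp1 as lower (14% of all genes), with adjusted p from 0.00869 for Ltbp2 to 0.0444 for Tgfb2. Limma-voom with quality weights, which counts a deviating library less, called 9 of 10 there, all but Tgfbr1, at backgrounds of 18.2% higher and 19.8% lower. Between KO-TAC and Control it called Tgfb2 and Ltbp2 higher (2.4% of all genes) and Tgfbr3 and Ltbp1 lower (2.8%).

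Markers of the cell types of the heart also differed between the hearts of a group, though not all lists followed the order seen in the members. The median log2 level of 9 cardiomyocyte markers minus that of Control came to -0.48, 0.22 and -3.12 for TAC replicates 1, 2 and 3 and to -0.90, -0.04 and -0.01 for KO-TAC replicates 1, 2 and 3. For 8 fibroblast markers it was 1.08, 0.02 and 0.71 in TAC and 0.81, 0.30 and 0.14 in KO-TAC, and their summed level was 1231 to 1413 CPM in Control, 1370 to 2590 in TAC hearts and 1567 to 1761 in KO-TAC hearts. All 8 fibroblast markers had higher means under TAC than in Control, but by unequal amounts. The log2 differences were 0.10 (Tcf21), 0.13 (Pdgfra), 0.27 (Gsn), 0.48 (Dpt), 0.81 (Lum), 1.01 (Dcn), 2.38 (Pi16) and 3.49 (Mfap5). Tcf21, the gene that drives the Cre, averaged 4.04 CPM with the knockout, below the TAC mean of 6.31 and the Control mean of 5.91. Each KO-TAC heart had less Tcf21 than every other heart, and the reason was not tested. The 8 endothelial markers gave medians of 0.78, -0.06 and 0.95 in TAC and 0.23, 0.20 and 0.16 in KO-TAC. Summed levels of 8 macrophage markers were 214.4 to 231.8 CPM in Control, 197.1 to 418.8 in TAC hearts and 222.6 to 381.2 in KO-TAC hearts. Those of 7 smooth muscle and pericyte markers were 1143 to 1199, 521.9 to 990.2 and 797.8 to 1147 CPM. The medians of this list relative to Control were 0.14, -0.30 and -0.22 in TAC replicates 1, 2 and 3. They were 0.11, -0.40 and 0.14 in KO-TAC replicates 1, 2 and 3. Of the 7 genes, 3 had higher and 4 lower means in TAC than in Control. Abcc9, a large part of the sum, had 438.1 to 468.9 CPM in Control and 133.6, 294.2 and 66.6 in TAC. KO-TAC replicates 1, 2 and 3 had 147, 179.4 and 363.1 CPM of it. In both operated groups its order of hearts was that of the cardiomyocyte sum. Between TAC and Control its log2 difference was -1.47. The others had -0.59 (Myh11), -0.22 (Notch3), -0.135 (Rgs5), 0.06 (Kcnj8), 0.10 (Pdgfrb) and 0.82 (Cnn1). Which cells the Abcc9 RNA came from was not tested. The 5 platelet markers, whose cells store TGF-beta, summed to 10.01 to 13.1 CPM in Control, 15.4 to 27.5 in TAC hearts and 9.74 to 24.9 in KO-TAC hearts. The 6 lymphocyte markers (1.76 to 5.43 CPM over all hearts) and the 6 epicardial and mesothelial markers (5.69 to 27.5 CPM) were at low levels. The epicardial and mesothelial sum was 7.34 to 16.2 CPM in Control and 5.69 to 12.4 in KO-TAC. It was 25.0, 27.5 and 24.4 in TAC replicates 1, 2 and 3, so all 3 TAC hearts were above the other 6 in this sum. In TAC replicate 3, Wt1 alone had 21.7 of the 24.4 CPM. The list medians relative to Control were 1.43, 1.26 and -0.555 in TAC replicates 1, 2 and 3, so replicate 3 was not high across the list. Cd3e was at 0 in TAC replicate 2 and Lrrn4 at 0 in TAC replicate 3. The cardiomyocyte markers did not all move alike in TAC replicate 1 and KO-TAC replicate 1. Myh6 was low there (13690 and 14870 CPM, Control 33380 to 33670), while Myl2 was not (6661 and 5625 CPM, Control 5236 to 5570). The 3 hearts with the lowest cardiomyocyte and highest fibroblast marker sums were TAC replicates 1 and 3 and KO-TAC replicate 1. These hearts have the 3 highest values of 5 of the 10 members, Tgfb1, Tgfb3, Tgfbr2, Ltbp2 and Ltbp3. For the other 5 they do not: KO-TAC replicate 2 is among the 3 highest for Tgfb2 and Ltbp4, TAC replicate 2 for Tgfbr1, and Control hearts for Tgfbr3 and Ltbp1. The part of cell makeup in the results was not tested, and in whole-heart RNA fewer cells of a type and less RNA per cell cannot be told apart.

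**Figure D4:**
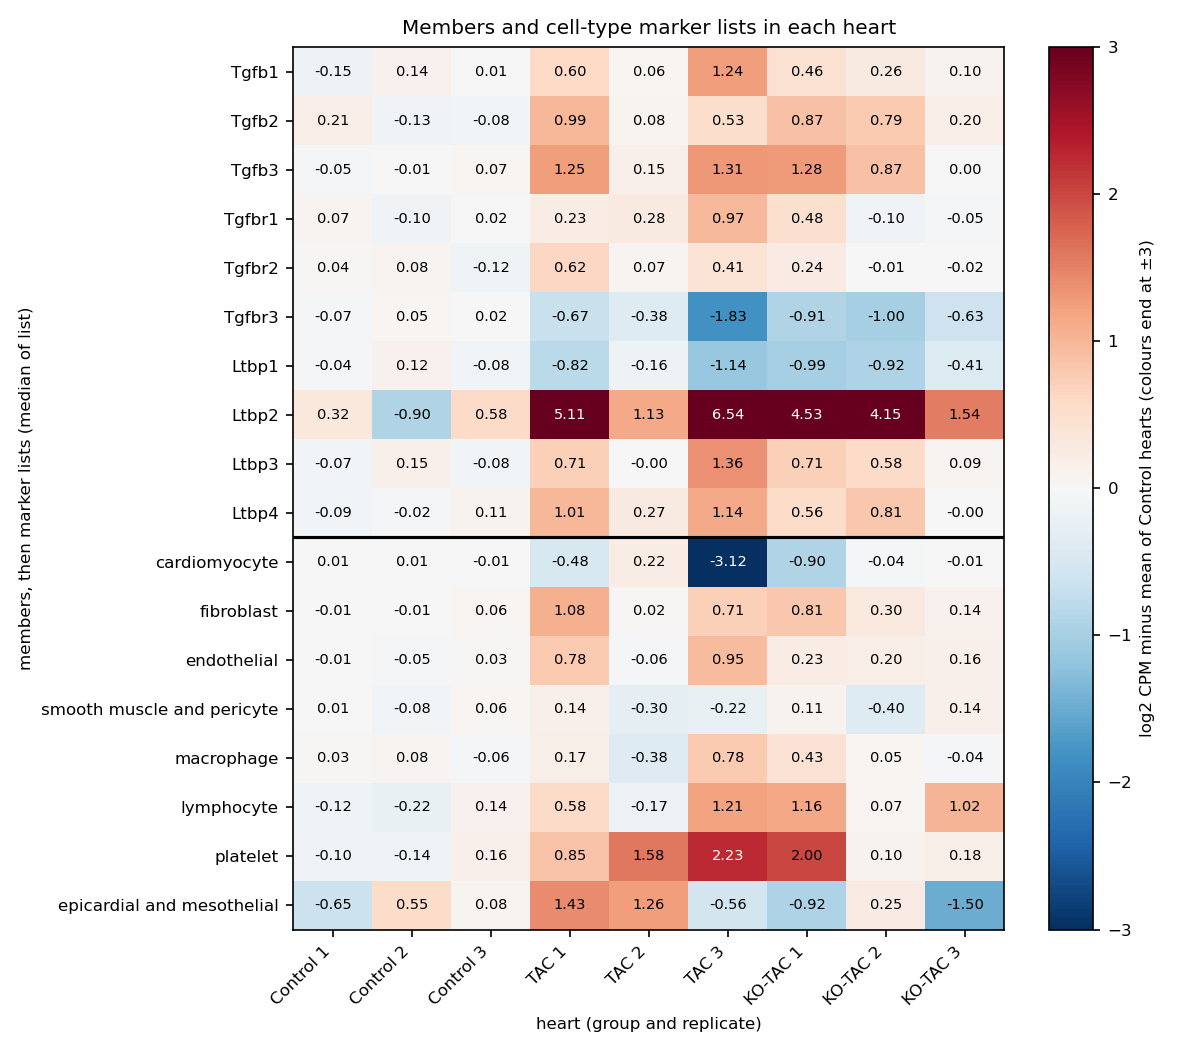
Log2 CPM of the 10 genes, and the median of each marker list, in every heart relative to the Control mean (colour, ending at 3 in either direction). TAC replicate 3 shows the strongest colours, with the cardiomyocyte markers at -3.12. In the rows of the 10 genes, TAC replicate 2 and KO-TAC replicate 3 look most like Control. Not all their marker lists do: the epicardial and mesothelial list is at 1.26 in TAC replicate 2 and -1.50 in KO-TAC replicate 3.

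Other genes of the pathway were taken from 4 lists with 65 genes, all of which passed the filter. By edgeR's adjusted p 0 of 65 were called in each comparison; DESeq2 called 25 between TAC and Control (8.55% of all genes), 5 between KO-TAC and TAC (1.03%), and 2 between KO-TAC and Control (0.468%). The 8 receptor partners had higher means in TAC than in Control for 7 genes, with a median log2 difference of 0.66. The 3 most abundant were Cav1, a membrane protein that takes receptors into caveolae (log2 0.87, SE 0.30), Eng, an endothelial co-receptor (0.92, SE 0.28), and Nrp1, a co-receptor of several ligands (-0.18, SE 0.26). Eng had 124 to 140.6 CPM in Control, 229.6, 175.4 and 352 in TAC, and 146.1 to 163.1 in KO-TAC. Every TAC heart thus exceeded every other heart. KO-TAC lay below TAC without overlap for 4.8% of all genes. How many of those also had TAC above Control was not counted. DESeq2 called 3 of the 8 higher in TAC (5.68% of all genes) and 0 in the other comparisons (1.03% and 0.468%).

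Of 20 genes that anchor, process or activate the latent complex, 14 had higher means in TAC than in Control (median log2 0.58) and 16 lower means in KO-TAC than in TAC (median -0.44). The most abundant, Itgb1 and Itgb5, integrin subunits, and Fbn1, the fibrillin to which Ltbp proteins bind, had log2 differences between TAC and Control of -0.17 (95% interval -0.73 to 0.40), 0.25 (-0.20 to 0.70) and 0.39 (-0.57 to 1.35). Fbn1 had 63.1 to 82.7 CPM in Control and 107.1, 34.99 and 152.4 in TAC, on both sides of the Control range. DESeq2 called 5 higher (5.68% of all genes) and 1 lower (2.87%) in TAC. The lower one was Itgb6, a subunit of a TGF-beta activating integrin, with 14.3 to 16.9 CPM in Control, 6.65, 6.01 and 2.11 in TAC hearts and 7.32 to 12.8 in KO-TAC hearts (DESeq2 adjusted p = 0.00539, edgeR adjusted p = 0.136). Thbs1, thrombospondin-1, an activator of latent TGF-beta, had 9.59, 5.24 and 6.88 CPM in Control, 65.5, 33.1 and 74.3 in TAC, and 15.7, 12.3 and 10.4 in KO-TAC. It was the only gene of this list that DESeq2 called lower in KO-TAC than in TAC (log2 -2.17, SE 0.34; DESeq2 adjusted p = 5.09e-06, edgeR adjusted p = 0.204), and TAC replicate 2 was high with the other 2. Itgb6 and Thbs1 were singled out after their values were seen.

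The 17 Smads and their regulators had 8 higher and 9 lower means in TAC, with a median of -0.19. Of the most abundant, Ppm1a, a Smad phosphatase, and Map3k7, the kinase TAK1, differed by -0.33 and 0.08, and Ski, a Smad corepressor, by 0.43 (SE 0.18; edgeR adjusted p = 0.216). Ski had 63.2, 67.3 and 70.2 CPM in Control, 77.2, 93.4 and 99.0 in TAC, and 62.2, 63.2 and 62.4 in KO-TAC. All 3 TAC hearts were above the other 6, a pattern whose share over all genes was not counted. KO-TAC lay below TAC without overlap for 4.8% of all genes. DESeq2 called Pmepa1, Tgif1 and Skil, which restrain Smad signalling, higher in TAC (5.68% of all genes) and Smad2 lower (2.87%); these were singled out after their values were seen. Pmepa1 had 15.6 to 21.5 CPM in Control, 46.7, 28.6 and 93.5 in TAC, and 28.1 to 42.0 in KO-TAC. Smad2 had 18.5 to 21.0 CPM in Control, 13.5 to 15.5 in TAC hearts and 15.2 to 17.0 in KO-TAC hearts.

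The 20 genes that TGF-beta is known to induce had higher means in TAC than in Control for all 20, and their median log2 difference was 1.86, or 3.62-fold. In KO-TAC the means were lower than in TAC for all 20 (median -0.98), and higher than in Control for 18 (median 0.95). DESeq2 called 12 higher in TAC than in Control (5.68% of all genes), 4 lower in KO-TAC than in TAC (0.615%) and 2 higher in KO-TAC than in Control (0.305%). Bgn, the proteoglycan biglycan, had 136.2 to 156.2 CPM in Control, 712.4, 185.2 and 1129 in TAC, and 508.3, 470.7 and 203.6 in KO-TAC. Postn, a matrix protein of activated fibroblasts, had 24.2 to 35.1 CPM in Control, 409.1, 45.8 and 1074 in TAC, and 231.9, 245.2 and 29.4 in KO-TAC. Col3a1, a fibrillar collagen, had 166.1 to 196.9 CPM in Control, 301, 119.3 and 511.4 in TAC, and 209.2, 209.2 and 146.7 in KO-TAC. All 3 genes were highest in TAC replicate 3, and TAC replicate 2 and KO-TAC replicate 3 were the lowest of their groups, as for Ltbp2. These are RNA levels of target genes, not a measure of ligand activity.

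**Figure D5:**
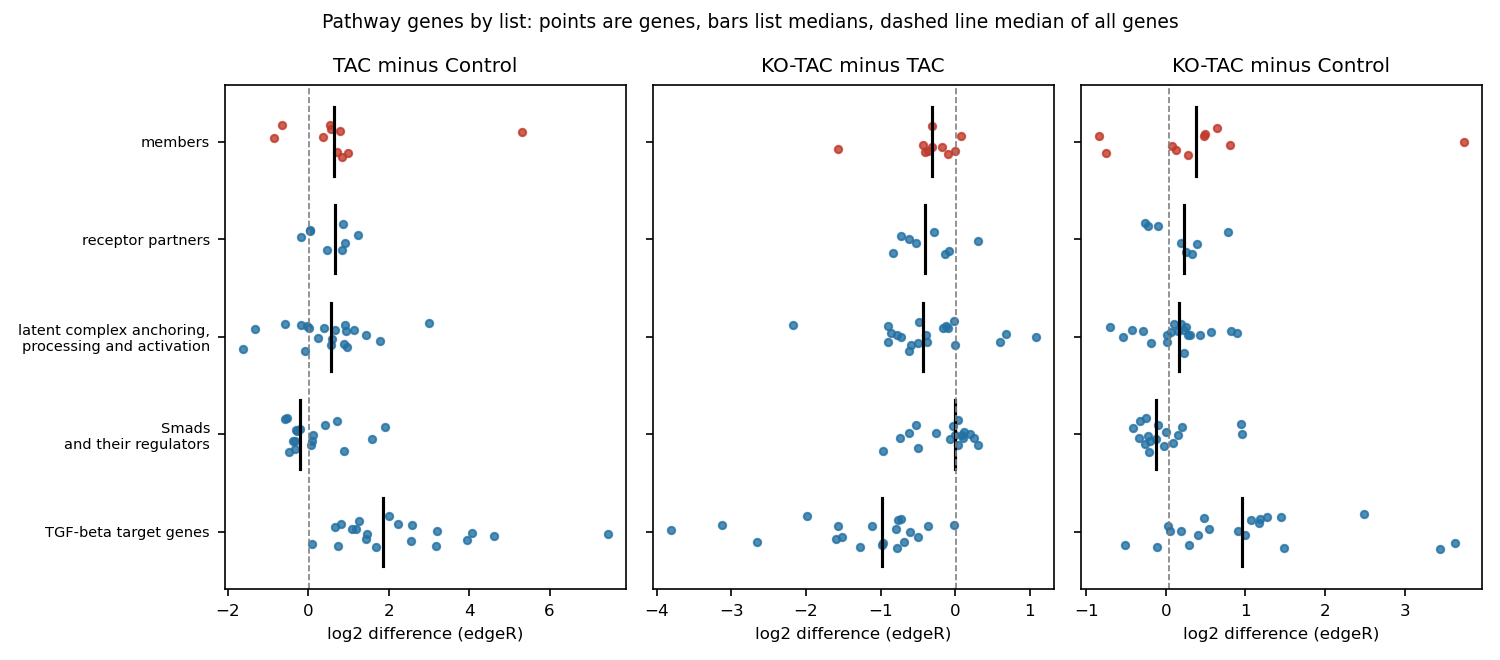
Log2 differences of the 10 members and of the 4 pathway lists in the 3 comparisons; points are genes, bars are list medians and the dashed line is the median of all genes tested. The target genes have the largest medians, 1.86 for TAC minus Control and -0.98 for KO-TAC minus TAC, and the Smad list lies around 0.

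By Pearson correlation of log2 CPM over the 9 libraries, among 12416 genes with a mean of at least 1 CPM, the genes most like Ltbp2 were Bmp4, a bone morphogenetic protein (r = 0.995), Bin1, a membrane-shaping protein (0.992), and Col12a1, a fibril-associated collagen (0.989). Those most like Tgfb1 were Fmnl3, Rnf215 and Meis3 (0.993, 0.993 and 0.991), and those most like Tgfb3 were Cygb, Rpl32 and Casp12 (0.988, 0.985 and 0.984). Tgfb2 was closest to Cd200, Rpl17 and Iah1 (0.974, 0.973 and 0.953). High values are common in these 9 libraries, which share their groups: r exceeded 0.9 for 1208 genes with Tgfb1, 553 with Ltbp2, 404 with Tgfb3 and 54 with Tgfb2. These correlations are a description of 9 libraries.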

How the data were processed

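Heart RNA was isolated with Trizol and sequenced from directional NEBNext libraries, per the labels' protocols. The authors deposited 1 table of raw counts (whole numbers for each gene symbol in 9 libraries), whose columns were matched to groups through the labels. Replicates are numbered as in the titles; TAC replicates 1, 2 and 3 are numbered 2, 3 and 4 in the table's columns. Tools in the submitters' processing notes are DESeq2 1.42.0, StringTie 2.2.1, SAMtools 1.15, HISAT2 2.2.1 and Trim Galore 0.6.10, and the builds are GRCm38 and mm10. Which of them counted reads, with what annotation, strand setting and treatment of multi-mapping reads, was not given in the sources used here. Without the strand setting, counts of genes that overlap others are uncertain.

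Counts were tested with edgeR 4.0.16 in R 4.3.3 (glmQLFit and glmQLFTest, two-sided), with TMM factors, filterByExpr at a minimum count of 10, all 9 libraries in 1 fit with the group as its only term, and Benjamini-Hochberg adjustment over 19051 genes at 0.05. The biological coefficient of variation was 42.1%. Standard errors and 95% intervals come from that fit; log2 CPM used a prior count of 2. An exact permutation test of 3 against 3 cannot go below 0.1 and was not used. Of 110 rows that repeat a symbol, 0 belong to members. Levels between genes were set per kilobase of GENCODE exons on GRCm38, or of the APPRIS principal transcript. Alternatives were library size alone, upper-quartile or RLE factors, DESeq2 1.42.0, voom with quality weights (limma 3.58.1), other filters, 2-group fits, a replicate block, removal of mitochondrial genes, and each library left out. DESeq2 without each TAC library and the transcript length were chosen after seeing the data. The code was tested on simulated data.

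The members, gene lists and tests were chosen with earlier results of these data known. All 10 members were named, and of each pathway list the genes past edgeR's threshold or else the 3 with the highest mean CPM; for Tgfb1, Tgfb2, Tgfb3 and Ltbp2 the 3 genes of highest correlation were named, leaving out predicted models. Other genes were singled out after their values were seen.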

Additional observations from a re-analysis of the deposited data

How the results depend on the processing

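Calls depended on the tool and on TAC replicate 2. EdgeR called 0 genes in all 3 comparisons (TAC minus Control, KO-TAC minus TAC, KO-TAC minus Control); DESeq2 called 1626, 195 and 89, with 1, 0 and 0 members and 25, 5 and 2 pathway genes, and voom with quality weights called 7230, 996 and 991, with 9, 0 and 4 members and 43, 10 and 7 pathway genes. For KO-TAC minus Control, no low-count filter gave 2 genes, and the fit to only those 2 groups gave 30 genes, 1 of them a pathway gene. With 1 library left out, by edgeR or for TAC libraries also by DESeq2, the counts ran from 0 to 7134, 0 to 3706 and 0 to 364 genes, from 0 to 9, 0 to 2 and 0 to 2 members, and from 0 to 44, 0 to 31 and 0 to 6 pathway genes. Without TAC replicate 2 edgeR called 5477, 13 and 3 genes; the cause was not tested.

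Of 660 alternative values of the members, 594 kept direction and side of the threshold, 40 newly passed it and 26 changed sign. The log2 difference of Tgfbr3 between KO-TAC and TAC was 0.082 with library size alone, 0.013 without a low-count filter and 0.061 under the replicate block, that of Tgfb2 was -0.231 with voom, and that of Tgfbr1 between KO-TAC and Control was -0.01 with voom. With 1 library left out, KO-TAC minus TAC ran from -0.138 to 0.334 for Tgfb2, -0.488 to 0.103 for Tgfb3, -0.322 to 0.298 for Tgfbr3, -0.302 to 0.225 for Ltbp1 and -0.611 to 0.095 for Ltbp3, and KO-TAC minus Control from -0.076 to 0.228 for Tgfbr1 and -0.015 to 0.121 for Tgfbr2. Library size alone moved the median of all genes between TAC and Control to 0.289. With the replicate block 0 genes were called in each comparison. Deviations of same-numbered TAC and KO-TAC hearts correlated at 0.106, 0.124 and -0.255, and those of TAC and KO-TAC hearts with unlike numbers at -0.434 to 0.355. Whether same-numbered hearts share more than a number cannot be decided from so few correlations. By the numbers in the table's columns, where TAC hearts are 2 to 4, the 2 shared pairs correlated at -0.00835 and 0.327; a block on those numbers was not run.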
